A study of Mus musculus with 14 samples.

Results

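The comparison set the hippocampus of TAK-418 treated Kmt2d mutant mice against that of vehicle treated wild types, and asked what was left of the genotype difference once the mutants had been treated. It used 6 of the 14 libraries of the series, 3 from each group, and the groups were taken from the genotype and treatment labels. The treated mutants carried 1 gene-trap allele of Kmt2d (KMT2D+/bGeo) and received TAK-418 at 1 mg/kg/day by gavage in methylcellulose. The wild types (KMT2D+/+) received methylcellulose alone (Veh). All mice were C57BL6 and are labelled as 30 days old, and the gavage had run for 2 weeks from an age of 2 weeks. The other 8 libraries were 3 of vehicle mutants and 5 of treated wild types. They entered the statistical fit so that all groups shared 1 estimate of the spread, and some of their values are given beside those of the compared groups. The design text speaks of 3-4 mice per group. Genotype and drug both differ between the compared groups, so their parts in a difference cannot be told apart within this comparison. Replicate numbers only name the libraries of a group. The p-values of the fit (limma) set a difference against a spread between libraries that was estimated over all 14. The p-values and q-values of the authors' deposited table are the authors' own.

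KMT2D is a histone methyltransferase that places methyl groups on lysine 4 of histone H3 at enhancers, and loss of 1 copy causes Kabuki syndrome in people. LSD1, the product of Kdm1a, removes methyl groups from the same lysine as part of the CoREST repressor complex, and TAK-418 inhibits it. The hippocampus holds the granule neurons of the dentate gyrus, which are added after birth, the pyramidal neurons of the CA fields, interneurons, glia and, beside it in a dissection, the choroid plexus. In bulk tissue, fewer cells of a type and less RNA per cell cannot be told apart.

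A gene's value here is its scaled abundance: the abundances of all assembled transcripts of the gene, on a scale per length and depth, summed and divided by a library factor. A gene listed at 0 is one with no assembled transcript. Differences are on the scale of log2(scaled abundance + 0.9), treated mutants minus vehicle wild types, with the standard error (SE) of limma. Relative depth in the 6 libraries, worked out from the smallest step between abundances, was 35.0 to 59.9 M (M is a factor of 1000000) and 33819 to 41228 transcripts were assembled. The means of transcripts, introns, genes with a value and depth were higher in treated mutants, and an exact two-sided permutation test gave p = 0.2 for each of the 4 (adjusted p = 0.2, smallest possible p = 0.1, n = 3). Xist was listed in 1 of the 3 treated mutants and 2 of the 3 vehicle wild types, so the groups were not balanced by sex.

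A library of each group stood apart. In treated mutant replicate 2, 26.9% of the abundance lay in single-exon transcripts that fell in no gene, against 3.04% to 4.56% in the other 5 libraries. Genes held 67.1% of its abundance and 93.7% to 95.9% in the others. The 45S ribosomal RNA region of chromosome 17 held 4.19% of it and at most 0.203% of the others. Vehicle wild type replicate 3 was rich in choroid plexus RNA. The summed scaled abundance of a 21-gene choroid plexus list was 7337 there, 115 and 110 in the other vehicle wild types, and 748, 91.8 and 107 in treated mutant replicates 1, 2 and 3. All 21 members had their highest value of the 6 libraries in that 1 library. Ttr, the thyroid hormone carrier that defines this tissue, was at 6369 in it and between 9.83 and 590 in the other 5. For some results below, the value without 1 of these libraries, or without both, is given. A result given without such a value may still rest on them.

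**Figure D1:**
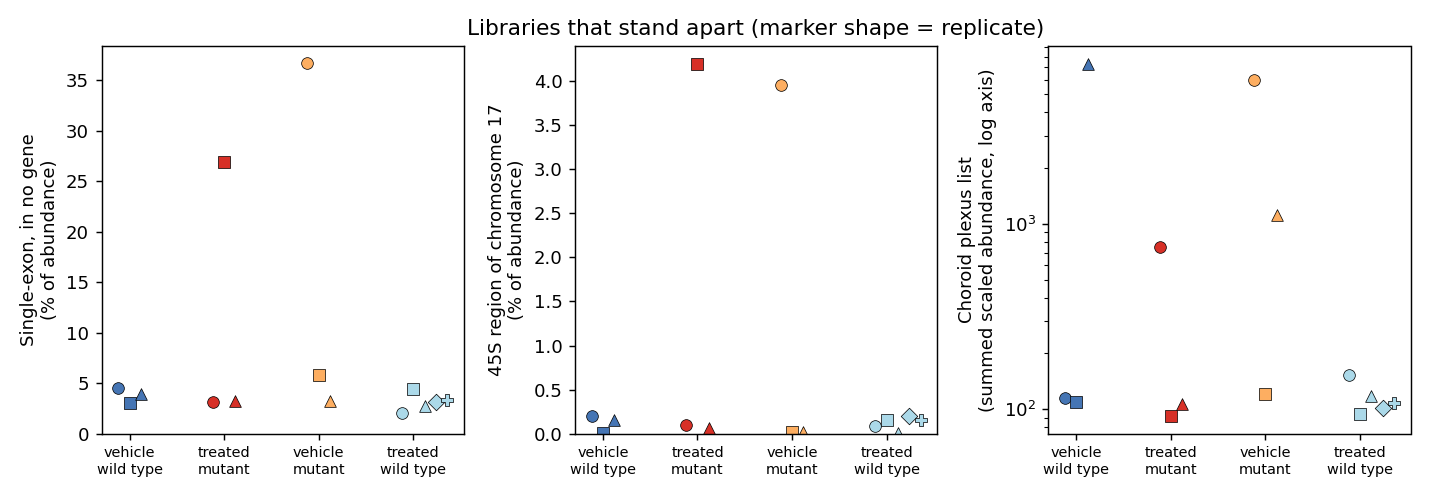
Share of abundance in single-exon transcripts outside genes (left, %), share in the 45S region (middle, %) and summed scaled abundance of the choroid plexus list (right, log axis) in each of the 14 libraries by group, with marker shape giving the replicate. Treated mutant replicate 2 lies at 26.9% and 4.19% in the first plots, and vehicle wild type replicate 3 at 7337 in the third.

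Kmt2d itself (chr15:98831669-98871204, GRCm38) had scaled abundances of 14.6, 13.3 and 9.34 in treated mutant replicates 1 to 3 and 13.98, 14.2 and 13.8 in vehicle wild types. The groups overlapped, and 1 treated mutant was lower than the rest. The means were 12.4 ± 2.73 and 13.99 ± 0.234 (SD, n = 3), a log2 difference of -0.18 ± 0.17 (SE) with an exact permutation p of 0.5. It was -0.00695 without treated mutant replicate 3 and -0.30 without replicate 1. A value summed over the gene does not tell trapped from intact transcripts, so it is a weak check of the labels. Kdm1a, which encodes the drug's target, was at 33.9, 34.2 and 34.1 in treated mutants and 33.7, 34.4 and 32.2 in vehicle wild types, with an exact permutation p of 0.6. The authors' deposited table lists group values of 2.56 FPKM in vehicle wild types and 2.23 in treated mutants for Kmt2d, and of 26.4 and 26.7 for Kdm1a, neither called.

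Across 16569 genes tested with limma, 1 had an adjusted p under 0.05, which is 0.00604% of them. At an unadjusted p under 0.05 there were 893 genes, 523 higher in treated mutants (3.16% of the tested genes) and 370 lower (2.23%), so 58.6% of them were higher. Without the library factors the split turned to 222 higher and 497 lower, or 30.9% higher, and the median of all genes moved from 0 to -0.06, so a small difference has to be read against that shift. The groups did not overlap for 917 genes that were higher (5.53%) and 661 that were lower (3.99%).

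The 1 called gene was Pcdhb13, a clustered protocadherin gene (chr18:37442500-37446209, GRCm38) whose products mark the surface of neurons. Its scaled abundance was 2.28, 1.70 and 1.52 in treated mutants, and it was listed at 0 in all 3 vehicle wild types and in the other 8 libraries. The log2 difference was 1.59 ± 0.11 (SE), with a limma adjusted p of 7.42e-05. Each value rests on 1 single-exon transcript, 3 other annotated genes overlap it on the same strand, and near-identical paralogs lie beside it, so the call is uncertain. It met the requirement of a value in at least 3 libraries through the treated mutants alone, and its SE rests on libraries listed at 0, so it had to differ and its p-value is no support. With multi-exon transcripts only, or without any 1 of the treated mutants, the gene was in too few libraries to be tested. Of the 22 genes of the beta cluster on the list, 10 were tested, and 8 of the 10 had a difference above 0. The number tested fell to 7, 9 and 8 without treated mutant replicates 1, 2 and 3. It stayed at 10 without any 1 vehicle wild type. Some members thus passed the filter through the treated mutants, so their direction is no support. Pcdhb11, beside Pcdhb13, was at 2.48, 0 and 2.86 against 0 in all vehicle wild types, with an unadjusted p of 0.0286 and a limma adjusted p of 0.874.

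The 10 genes higher and the 10 lower in treated mutants with the smallest p were taken from those with a value in all 14 libraries and a mean of at least 5 in the higher group. None of the 20 passed the adjusted threshold in limma, where their adjusted p-values ran from 0.0524 to 0.592, although the groups did not overlap for any of the 20, as the choice by p favours. The means of the higher genes were 1.18 to 2.72 times those of the vehicle wild types, and the means of the lower genes were 0.330 to 0.834 times. Of the 20, 15 have 1 locus in the authors' deposited table, where 12 of the 15 lay in the same direction and 0 were called. Timm23, Tbce, Ncam1, Phf10 and Smpd4 have no single locus there, so no value of it was set beside them. Penk, Resp18, Pnck and Itpr1 also had an unadjusted p under 0.05 in the authors' deposited table, which is made from the same libraries. Without both libraries that stand apart, the log2 differences of these genes were 0.42, 0.38, 0.32 and -0.32.

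Penk encodes proenkephalin, the precursor of the opioid enkephalins (chr4:4133531-4138819). It was at 21.4, 25.5 and 26.5 in treated mutants and 17.9, 17.2 and 17.6 in vehicle wild types. Every treated mutant lay above every vehicle wild type, with means of 24.5 ± 2.72 and 17.6 ± 0.381 (SD, n = 3) and a log2 difference of 0.45 ± 0.09 (SE, limma adjusted p = 0.236). The authors' deposited table gives 13.3 FPKM in vehicle wild types and 18.2 in treated mutants, with a q-value of 0.0938. Vehicle mutants, at 21.6, 23.2 and 22.1, also lay above all vehicle wild types, and treated wild types, at 16.9 to 21.3, overlapped them. Penk is also on the list of 7 striatum genes, where 6 had a difference above 0 and 1 below, with a median of 0.16. The sum of that list was 56.1 to 62.8 in treated mutants and 50.9 to 68.4 in vehicle wild types.

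Resp18 encodes a protein of the secretory granules of neuroendocrine cells (chr1:75272199-75278415). Treated mutants were at 64.0, 69.6 and 54.4 and vehicle wild types at 41.1, 49.3 and 44.7, a log2 difference of 0.47 ± 0.09 (SE) with a limma adjusted p of 0.232. Here the vehicle mutants, at 46.4, 47.1 and 43.7, stayed within the range of the vehicle wild types, treated wild types were at 44.9 to 49.97, and the 3 treated mutants were above all 11 other libraries. The authors' deposited table gives 48.7 and 65.5 FPKM, in the order wild type then mutant, with a q-value of 0.131. Pnck, which encodes a calcium/calmodulin-dependent protein kinase of the CaMKI family (chrX:73655994-73660117), was at 64.4, 66.6 and 61.4 against 52.4, 47.8 and 49.0 (log2 difference 0.36 ± 0.07 SE, limma adjusted p = 0.236). Vehicle mutants were at 45.7, 51.4 and 47.7, and overlapped the vehicle wild types. Treated wild types were at 57.0 to 66.5, above every vehicle wild type and overlapping the treated mutants.

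Itpr1 encodes the inositol trisphosphate receptor that releases calcium from the endoplasmic reticulum (chr6:108213096-108551109). It was at 42.4, 37.2 and 33.7 in treated mutants and 48.6, 46.1 and 45.3 in vehicle wild types (log2 difference -0.30 ± 0.07 SE, limma adjusted p = 0.533). Vehicle mutants, at 38.8, 36.9 and 40.0, and treated wild types, at 40.5 to 44.7, were also below all 3 vehicle wild types. The authors' deposited table lists 35.9 and 28.2 FPKM, with an unadjusted p of 0.0087 and a q-value of 0.373.

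The other genes of the 20 included larger differences on 1 measure that the second measure did not share. Aptx, which encodes the DNA repair enzyme aprataxin, was at 13.4, 14.1 and 14.9 against 8.81, 6.73 and 9.39 (limma adjusted p = 0.0526), while the authors' deposited table gives 11.997 and 11.9 FPKM. Tmem256 was at 6.42, 25.8 and 7.79 against 37.6, 44.4 and 39.0, and the authors' deposited table gives 61.0 and 59.2 FPKM. Tspan7, a neuronal tetraspanin, was at 542, 563 and 559 against 684, 672 and 637, below all 11 other libraries, and the authors' deposited table gives 591 and 601 FPKM. Mkx and Erbb4, the neuregulin receptor of interneurons, were at 6.89 and 6.82 FPKM and at 5.45 and 5.57 FPKM in the authors' deposited table. In these 5 genes the 2 ways of summing a gene's reads therefore gave different answers, and the cause was not tested. Slc26a10, a gene of the anion transporter family, was at 11.2, 9.65 and 10.1 against 6.37, 5.96 and 6.21 (limma adjusted p = 0.0524), and the authors' deposited table gives 7.12 and 10.01 FPKM with an unadjusted p of 0.199.

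Timm23, which encodes the core of the import channel of the mitochondrial inner membrane, was at 60.4, 64.9 and 65.6 in treated mutants and 24.4, 23.8 and 21.9 in vehicle wild types. Vehicle mutants were at 23.7, 25.3 and 22.4, and treated wild types at 21.5 to 44.3. The treated mutants thus stood above all other libraries (log2 difference 1.41 ± 0.21 SE, limma adjusted p = 0.0721). The second measure was not available for Timm23. Ncam1, the neural cell adhesion molecule, was at 31.7, 21.3 and 50.9 against 69.9, 56.9 and 75.9. Only 1 transcript of Ncam1 was assembled in treated mutant replicates 1 and 2 and 5 to 6 in the other 4 of the 6 libraries. With the most abundant transcript alone, the Ncam1 difference turned from -1.02 to 0.08, that of Pgbd5 from 0.23 to -0.37 and that of Mkx from -0.39 to 0.07. Of the 20 genes, 10 overlap another gene on the opposite strand, and whether the abundances used strand is not stated, so the pair cannot be told apart there.

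**Figure D2:**
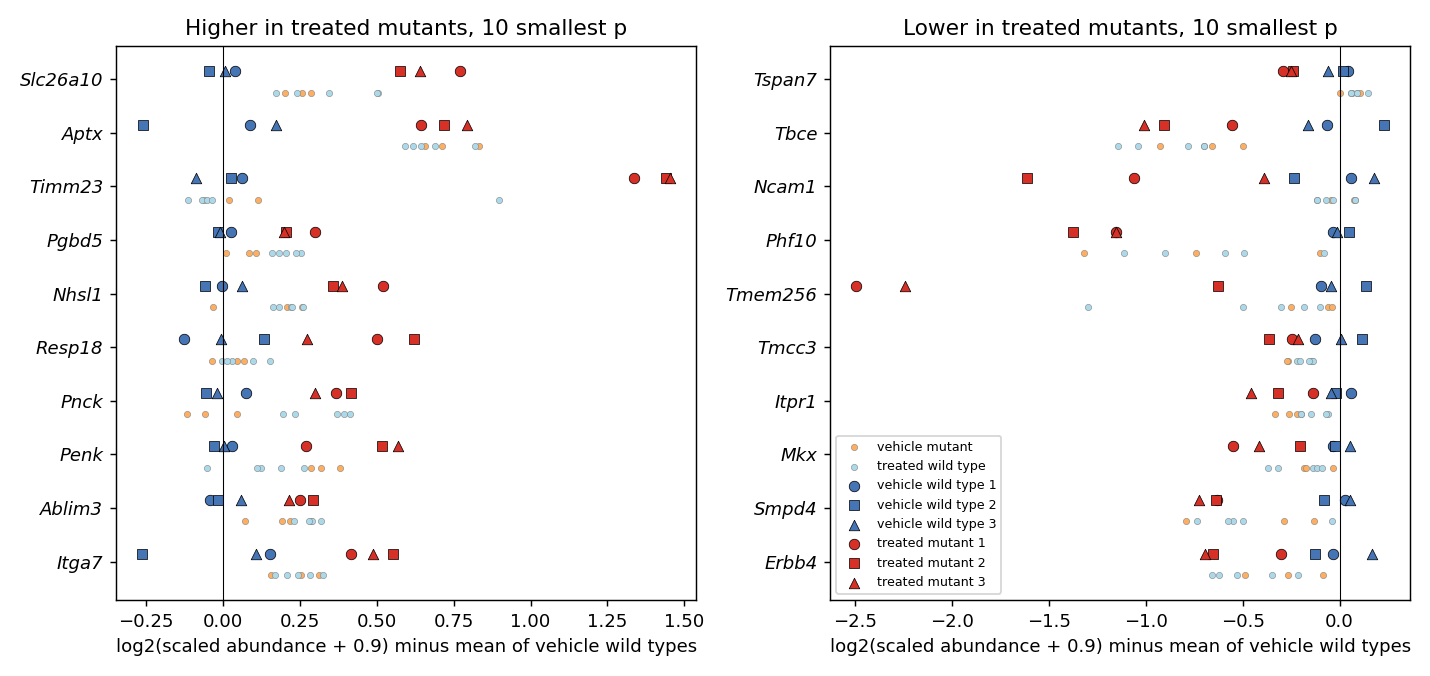
Differences of the 10 higher (left) and 10 lower genes (right) from the mean of the vehicle wild types, in log2(scaled abundance + 0.9), with 1 large marker for each library of the compared groups and small markers below for the other 8 libraries. Treated mutants and vehicle wild types do not overlap for any of the 20. For Aptx and Tbce the vehicle mutants and treated wild types lie with the treated mutants. For Ncam1 they lie with the vehicle wild types, and for Tspan7 with or above them. For Timm23 they also lie with the vehicle wild types, except treated wild type replicate 1, which lies between the compared groups at a scaled abundance of 44.3.

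The other 2 groups were set beside these 20 genes. Among the 10 higher genes, Slc26a10, Aptx, Penk, Ablim3 and Itga7 were also above all vehicle wild types in every vehicle mutant. Among the 10 lower, Tbce, Phf10, Tmcc3, Itpr1, Mkx and Smpd4 were also below all vehicle wild types in every vehicle mutant. Treated wild types, which have no mutant allele, also lay wholly beyond the vehicle wild types in the same direction, in 7 of the 10 higher and 7 of the 10 lower genes. The 20 were chosen by their p against these same vehicle wild types, which favours such counts. The share over all genes was not counted for these 2 groups, so the counts are no result about the 20. For Aptx the log2 difference of treated mutants from vehicle wild types was 0.72 and that of vehicle mutants 0.73, and treated wild types were at 12.9 to 15.2, so the vehicle wild types alone were low. For Tbce, which encodes a tubulin folding cofactor, the differences were -0.82 and -0.69, and treated wild types were at 16.4 to 22.6, so the vehicle wild types alone were high. For Timm23 the 2 differences were 1.41 and 0.02, for Ncam1 -1.02 and 0.04, and for Tspan7 -0.26 and 0.07. Treated mutants minus vehicle mutants gave 1.39, -1.06 and -0.33 for those 3 genes. All these differences share libraries, the vehicle wild types among them, and come from the same fit, so they are set side by side and not tested against each other.

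The gene lists held 332 tested genes in 29 lists, of which 24 were higher at an unadjusted p under 0.05 (7.23%, against 3.16% of all genes) and 17 lower (5.12%, against 2.23%). Of the 332, Pcdhb13 alone passed the limma adjusted threshold. Over all genes tested, 8251 had a difference above 0 and 8202 below, and the counts of each list below are to be read beside these. Without vehicle wild type replicate 2, the count was 25 in place of 41. The lists name the cell types and pathways of the tissue and hold genes chosen with earlier results known.

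Of the 11 genes of the mature granule cell list, 4 were higher at an unadjusted p under 0.05 and 0 lower. Over all genes these shares were 3.16% and 2.23%. Of the 11, 9 had a difference above 0, and the median log2 difference was 0.10, against 0 over all genes. Dsp, which encodes the cell junction protein desmoplakin and marks dentate granule cells (chr13:38150477-38198577 in the authors' deposited table), was at 15.9, 16.6 and 15.1 in treated mutants and 13.3, 10.2 and 10.1 in vehicle wild types. The groups did not overlap, with means of 15.9 ± 0.741 and 11.2 ± 1.85 (SD, n = 3) and a log2 difference of 0.48 ± 0.11 (SE, limma adjusted p = 0.512). The authors' deposited table called Dsp, at 7.55 FPKM in vehicle wild types and 10.9 in treated mutants, with a q-value of 0.0185.

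Prox1, the transcription factor that sets granule cell identity, was at 39.5, 34.1 and 36.8 against 30.2, 30.6 and 30.1 (log2 difference 0.27 ± 0.09 SE, limma adjusted p = 0.811). C1ql2, which encodes a secreted organizer of mossy fibre synapses, was at 61.6, 58.6 and 62.2 against 52.2, 49.5 and 54.5 (limma adjusted p = 0.646). Lct was the fourth, at 19.4, 16.9 and 17.1 against 15.5, 13.2 and 16.9. In each of these 4 genes the groups did not overlap. Calb1, the calcium buffer calbindin and the most abundant member, was at 94.5, 103 and 96.2 against 118, 90.4 and 86.8, and did overlap. Leaving out treated mutant replicate 1 reduced the 4 genes to 2. Without the library factors the count was 1 and the median 0.03.

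Vehicle mutants lay above all vehicle wild types for Prox1, at 31.0, 32.6 and 36.1, and so did treated wild types, at 33.5 to 43.3. For Dsp, vehicle mutants were at 14.5, 14.3 and 11.6, with 1 of the 3 among the vehicle wild types, and treated wild types at 14.5 to 17.1, above all of them. Cacng5, named after its values were seen, was also called as higher in the authors' deposited table (2.96 to 4.51 FPKM, q-value 0.0185), and its libraries did not overlap. It encodes an auxiliary subunit of AMPA receptors. By library it was at 6.24, 6.50 and 6.597 in treated mutants and 4.60, 3.97 and 3.88 in vehicle wild types, and its limma adjusted p was 0.592.

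In the newborn granule neuron list, 2 of 13 genes were higher at an unadjusted p under 0.05 and 0 lower, and the median log2 difference was 0.13. The 2 became 0 without library factors or without vehicle wild type replicate 2, 1 without treated mutant replicate 1 or vehicle wild type replicate 1 (median 0.12 and 0.07), and 3 higher with 1 lower without vehicle wild type replicate 3. Igfbpl1 was at 10.98, 9.33 and 11.3 against 7.33, 5.87 and 10.3, and these groups overlapped. Calb2, which encodes calretinin, was at 41.5, 39.4 and 41.6 against 37.5, 28.1 and 36.2 (limma adjusted p = 0.833). Dcx, the microtubule protein doublecortin of migrating neurons, was at 5.98, 5.88 and 5.91 against 4.82, 4.88 and 6.38 and overlapped. Bhlhe22 was listed at 0 in treated mutant replicates 1 and 2, at 50.5 in replicate 3, and at 63.9, 65.5 and 39.3 in vehicle wild types. In the list of neural stem and dividing cells 0 of 14 genes had an unadjusted p under 0.05, and 7 lay above and 7 below 0.

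Among the 13 neuropeptide precursors, 4 were higher at an unadjusted p under 0.05 and 0 lower, with a median log2 difference of 0.15. Beside Penk these were Npy, Tac1 and Crh. Npy, neuropeptide Y, was at 76.1, 89.7 and 81.5 against 53.9, 76.8 and 69.6 (limma adjusted p = 0.833), and the groups overlapped by 1 library. Crh, the corticotropin releasing hormone, was at 2.13, 2.61 and 3.29 against 2.18, 1.93 and 1.64. Cartpt did not overlap, at 4.02, 5.79 and 4.24 against 3.67, 3.32 and 2.65, with an unadjusted p of 0.0513. The 2 most abundant members, Cck and Sst, did overlap: Cck was at 428, 451 and 401 against 478, 440 and 327, and Sst at 220, 268 and 308 against 293, 284 and 288. Leaving out treated mutant replicate 2, treated mutant replicate 3 or vehicle wild type replicate 3 left 2 genes, as did the fit without library factors, and without both libraries that stand apart 1 was left. Of 15 interneuron genes, 9 had a difference above 0 and 6 below, with a median of 0.05. Npy and Lhx6 were higher at an unadjusted p under 0.05. Lhx6, a transcription factor of interneurons, was at 8.30, 8.50 and 8.99 against 7.15, 7.41 and 7.38.

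Immediate early genes are those that neurons switch on within minutes of activity. Of 19 tested members, 14 had a difference below 0, the median was -0.28, and Egr1, Arc, Npas4 and Nr4a1 were lower at an unadjusted p under 0.05, with 0 higher. Fos, which encodes a subunit of the AP-1 transcription factor (chr12:85473890-85477273 in the authors' deposited table), was called there at 7.10 FPKM in vehicle wild types and 4.45 in treated mutants, with a q-value of 0.0350. The promoters of Fos and of the 2 transcription factor genes Npas4 and Nr4a1 are shown because such genes respond to the factor CREB, which binds the cAMP response element. They are the 250 bases before the transcription start from RefSeq (GRCm38.p6), 5′ to 3′ on the gene's strand, with every TGACG, or CGTCA as it reads on the other strand, in capitals. These letters are 1 arm of the full element TGACGTCA, which holds both and would count as 2 overlapping matches.
Fos, chr12:85473640-85473889, plus strand: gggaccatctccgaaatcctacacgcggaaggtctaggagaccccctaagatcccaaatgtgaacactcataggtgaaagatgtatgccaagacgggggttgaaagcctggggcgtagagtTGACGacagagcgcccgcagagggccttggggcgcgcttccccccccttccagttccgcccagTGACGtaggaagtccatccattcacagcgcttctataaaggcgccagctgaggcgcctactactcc
Npas4, chr19:4989972-4990221, minus strand: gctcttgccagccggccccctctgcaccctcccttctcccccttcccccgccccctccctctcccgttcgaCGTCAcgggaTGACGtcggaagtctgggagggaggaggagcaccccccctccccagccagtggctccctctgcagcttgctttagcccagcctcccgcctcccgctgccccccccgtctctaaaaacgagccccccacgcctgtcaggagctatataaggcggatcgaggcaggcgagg
Nr4a1, chr15:101266596-101266845, plus strand: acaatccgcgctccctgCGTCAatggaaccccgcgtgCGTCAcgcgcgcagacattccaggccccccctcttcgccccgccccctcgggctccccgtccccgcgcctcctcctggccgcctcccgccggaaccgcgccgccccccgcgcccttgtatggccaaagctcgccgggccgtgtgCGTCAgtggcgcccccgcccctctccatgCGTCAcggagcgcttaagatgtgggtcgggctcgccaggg
The arm occurs 2 times in the Fos window, 129 and 66 bases before the start, counted from its first base. It occurs 2 times in that of Npas4 and 4 times in that of Nr4a1. Of all 32851 windows of this length, 17.8% hold it at least once and 3.90% at least 2 times. Of the 20 genes of the list, 13 have a window in the table and 11 of the 13 hold it in at least 1 window. That count is by gene and the shares above are by window, and a gene can have several windows, so they are not on the same unit. A match describes the letters and is not evidence of binding.

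By library, Fos was at 6.30, 4.94 and 6.04 in treated mutants and 5.23, 11.5 and 9.22 in vehicle wild types. Vehicle wild type replicate 1 lay among the treated mutants and the other 2 above them, and the limma adjusted p was 0.958. Egr1 showed the same order, at 42.9, 38.8 and 48.8 against 42.9, 63.5 and 63.9 (limma adjusted p = 0.916). Arc, which encodes a synaptic protein translated near active spines, was at 35.1, 36.6 and 36.9 against 36.5, 53.0 and 52.1 (limma adjusted p = 0.858). In the authors' deposited table Arc is at 34.3 and 25.4 FPKM with a q-value of 0.0669. Nr4a1 was at 23.2, 26.1 and 22.6 against 24.99, 32.2 and 33.4.

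Npas4 was the 1 list member whose groups did not overlap, at 3.88, 3.70 and 2.72 against 4.68, 4.66 and 5.22 (log2 difference -0.42 ± 0.17 SE, limma adjusted p = 0.874). Vehicle wild type replicate 1 was the lowest of its group in 11 of the 19 genes. Leaving it out raised the 4 genes to 7, leaving out vehicle wild type replicate 2 or 3 left 1 and 0, leaving out treated mutant replicate 1 left 2, and the list median stayed below 0 in each case, at -0.36, -0.14, -0.13 and -0.29. Without both libraries that stand apart 0 were left. For Arc and Egr1 the other 8 libraries also lay below vehicle wild type replicates 2 and 3. Arc was at 33.5, 30.2 and 41.0 in vehicle mutants and 31.1 to 37.7 in treated wild types, and Egr1 at 38.8, 34.7 and 51.2 and at 39.6 to 43.1.

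**Figure D3:**
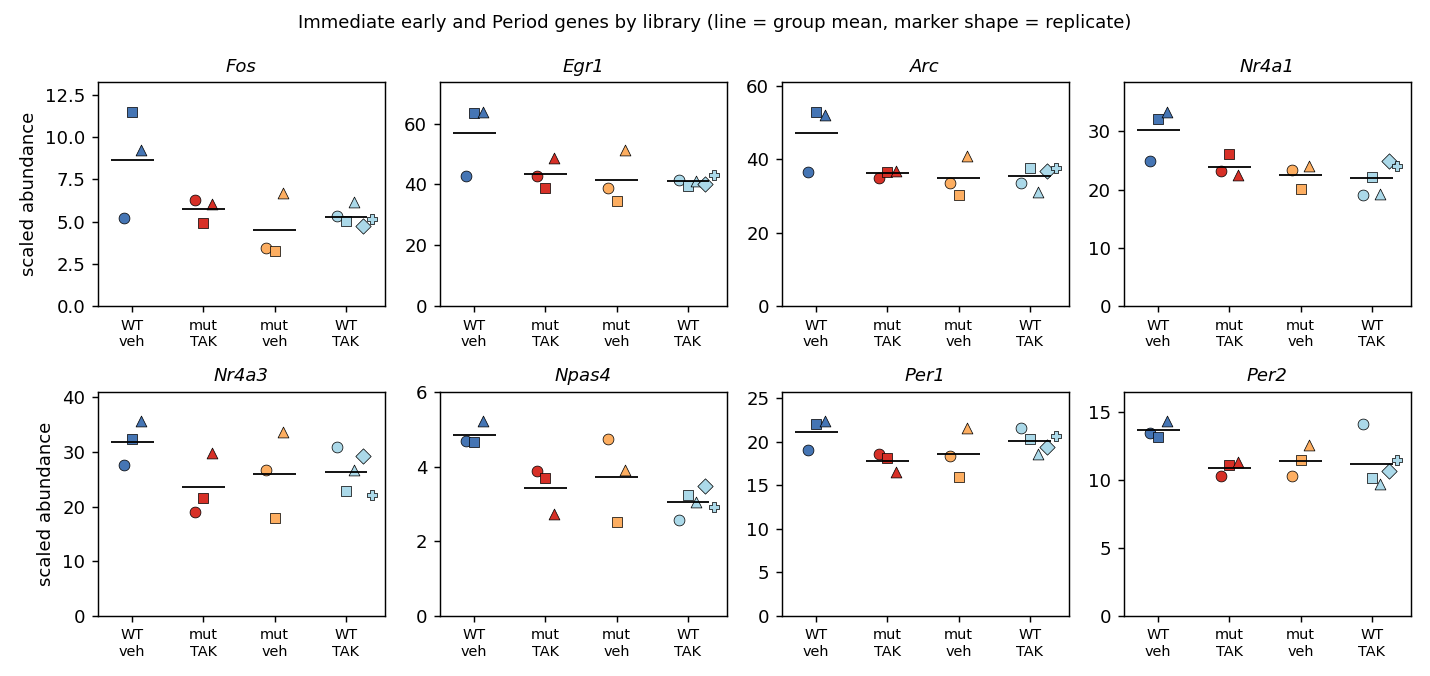
Scaled abundance of 6 immediate early genes and of Per1 and Per2 in each of the 14 libraries, by group (WT veh, vehicle wild type; mut TAK, treated mutant; mut veh, vehicle mutant; WT TAK, treated wild type), with a line at the group mean. For Fos, Egr1, Arc and Nr4a1, 2 vehicle wild types stand above the treated mutants and replicate 1 does not, while Npas4, Per1 and Per2 do not overlap between the 2 compared groups.

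The circadian clock list had 15 of 16 genes with a difference below 0 and a median of -0.09. Its 2 genes lower at an unadjusted p under 0.05 stand beside 2.23% of all genes. Without library factors the list median was -0.15 and that of all genes -0.06, so the difference is small against that shift. Per2, a repressor of the clock's feedback loop, was at 10.3, 11.1 and 11.3 against 13.4, 13.1 and 14.3 (log2 difference -0.30 ± 0.11 SE, limma adjusted p = 0.839). Per1, its paralog, was at 18.6, 18.1 and 16.6 against 19.1, 22.0 and 22.4 (limma adjusted p = 0.895). Arntl and Bhlhe41 were the other 2 members without overlap, with unadjusted p-values of 0.0803 and 0.14. Bhlhe41 was at 14.7, 13.1 and 14.8 against 16.1, 14.8 and 14.96. Clock hour at dissection is not given in the sources used here. Without vehicle wild type replicate 3 the count was 0, and without replicate 2 of that group it was 1.

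All 13 myelin and oligodendrocyte genes had a difference below 0, with a median of -0.21. Of the 13, 2 were lower at an unadjusted p under 0.05, against 2.23% of all genes. Mbp, the myelin basic protein gene and the most abundant of them, was at 1616, 1798 and 2153 in treated mutants and 1789, 2766 and 2261 in vehicle wild types, and the groups overlapped. Mobp was at 207, 434 and 467 against 424, 594 and 550, and Ugt8a at 22.4, 18.9 and 25.7 against 35.0, 29.3 and 24.9. The range of the summed list was 3875 to 4904 in treated mutants and 4012 to 6201 in vehicle wild types. Vehicle wild type replicate 1 was the lowest of its group for 12 of the 13 genes. Without it 8 genes had an unadjusted p under 0.05 and the median was -0.38, and without replicate 2 of that group the count was 0 and the median -0.09. It was also 0 without treated mutant replicate 1, and 1 without treated mutant replicate 2 or vehicle wild type replicate 3. Of 9 oligodendrocyte precursor genes 8 lay below 0. Pdgfra, the growth factor receptor of these cells, was at 13.05, 12.8 and 11.8 against 14.3, 14.2 and 14.99 (limma adjusted p = 0.858).

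Microglial genes had 10 of 12 differences below 0 and a median of -0.13. Of the 12, 3 were lower at an unadjusted p under 0.05, against 2.23% of all genes. Trem2, a lipid-sensing receptor, was at 8.43, 7.71 and 7.80 against 10.2, 11.2 and 8.85 (limma adjusted p = 0.811). C1qa, a chain of complement C1q, was at 34.6, 32.6 and 33.5 against 38.4, 40.1 and 34.2. Leaving out vehicle wild type replicate 2 reduced the 3 to 0, and leaving out its replicate 3 raised them to 6. Among 11 astrocyte genes 0 had an unadjusted p under 0.05, and the median was -0.02.

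The lists of the enzymes at the centre of the study held few genes past a threshold. Of 9 H3K4 methyltransferase genes, 12 genes of their partner subunits and 3 KDM5 demethylase genes, 0 had an unadjusted p under 0.05 in limma, and the groups overlapped for all 24 genes. The partner subunit genes spanned log2 differences from -1.64 to 0.94, whose ends are genes listed at 0 in some libraries. Of 14 LSD1 and CoREST complex genes, 12 had a difference above 0, with a median of 0.04, which is smaller than the shift between scalings. Rcor2, which encodes a CoREST scaffold, was at 9.19, 8.48 and 9.94 against 7.98, 7.56 and 6.64 (log2 difference 0.29 ± 0.10 SE, limma adjusted p = 0.811). Hdac1 and Zmym2, 2 other members of the complex, did not overlap either, with unadjusted p-values of 0.293 and 0.259. Hdac1 was at 30.3, 30.8 and 29.95 against 29.0, 25.7 and 24.9.

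Other lists held single genes. Of 13 interferon response genes, 8 had a difference above 0 and 5 below, with a median of 0.04. Rtp4, H2-K1 and H2-D1 were higher at an unadjusted p under 0.05. H2-K1, which presents peptides on the cell surface, was at 16.6, 15.4 and 16.9 against 12.5, 13.4 and 13.6 (limma adjusted p = 0.791), and these genes have near-identical relatives. In the CA field list Bok, a BCL2 family gene, was higher, at 72.5, 77.4 and 79.0 against 63.6, 64.9 and 59.2 (limma adjusted p = 0.533). Wfs1, a CA1 marker, was lower at 44.8, 44.6 and 46.7 against 50.9, 52.0 and 61.1 (limma adjusted p = 0.811), and vehicle mutants, at 52.8, 53.1 and 62.5, overlapped the vehicle wild types. Treated wild types, at 40.5 to 50.3, were also below all vehicle wild types. Of 22 glutamate receptor genes, 13 had a difference above 0 and 9 below, with a median of 0.02. Grm2 was at 24.2, 27.3 and 26.4 against 22.5, 22.8 and 22.1. Grik5, a kainate receptor subunit, was at 92.6, 90.8 and 101 against 85.5, 82.8 and 84.9. Among 12 glucocorticoid responsive genes Fkbp5 and Zbtb16 were higher and Sgk1 lower at an unadjusted p under 0.05, while 5 had a difference above 0 and 7 below. Without vehicle wild type replicate 2 the counts were 0 higher and 0 lower. They were 0 and 1 without both libraries that stand apart. Sgk1, a kinase gene, was at 36.4, 37.2 and 36.1 against 40.2, 51.1 and 43.9.

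**Figure D4:**
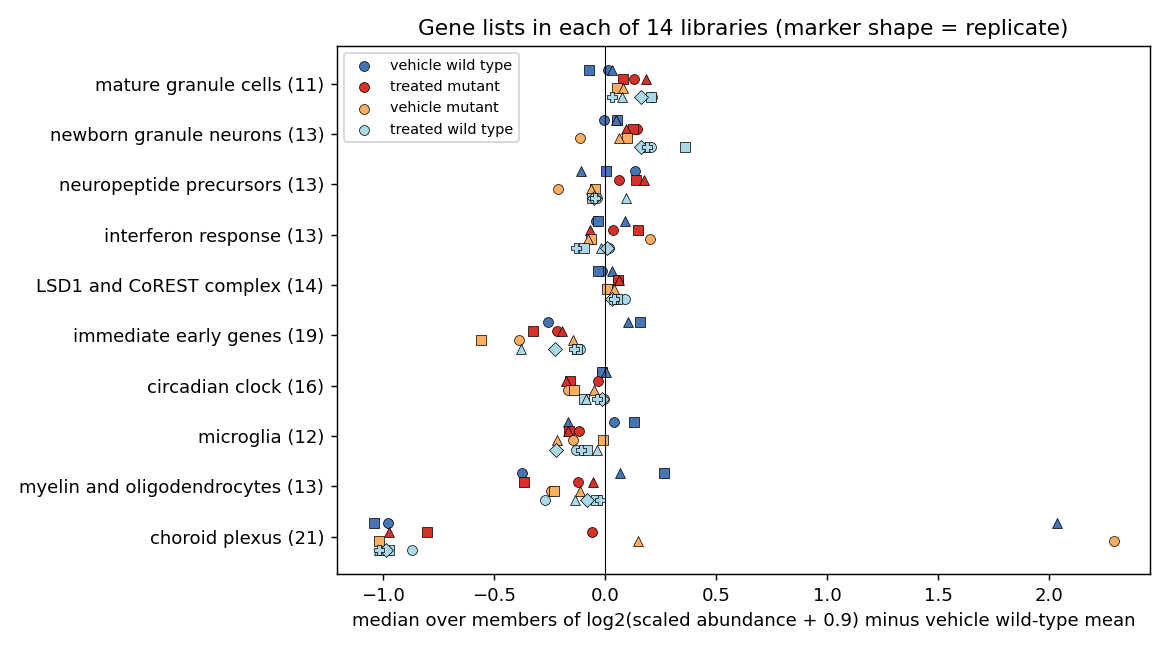
For 10 gene lists (members tested in brackets), the median over members of log2(scaled abundance + 0.9) minus the mean of vehicle wild types, 1 marker for each of the 14 libraries, coloured by group and with marker shape giving the replicate. The choroid plexus list runs from -1.04 to 2.29 and is high in 2 libraries. The lists drawn were picked from the 29. The compared groups do not overlap for the mature granule cell, newborn granule neuron, LSD1 and CoREST, and circadian clock lists. The gaps are small. LSD1 and CoREST medians were 0.059 to 0.065 in treated mutants and -0.031 to 0.030 in vehicle wild types. In each of these lists the gap is smaller than the shift of the all-gene median to -0.06 without library factors. They overlap for the other lists drawn, the immediate early, myelin and microglia lists among them.

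The second measure, the group values of the authors' deposited table, called 110 of 33991 loci at a q-value of 0.05. By the authors' deposited table, 44 loci were higher in treated mutants (0.129% of those tested) and 66 were lower (0.194%). Their smallest p is 5e-05 and their smallest q-value 0.0185, so 0 were called at 0.01. With both group values at 1 FPKM or more, 49 of the 110 were left in the authors' deposited table. The table pools the libraries of a group and gives no spread, so each called locus was set beside the abundance of each library over it.

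Of the 66 lower loci of the authors' deposited table, 48 have a gene symbol, and 44 of the 48 had their highest abundance of the 6 libraries in vehicle wild type replicate 3, the library rich in choroid plexus RNA. The 4 others were Fos, Trh, Dlx6os1 and the joint locus of Crot and Gm27941. In all, 15 loci hold a choroid plexus list gene, and all 15 are lower and highest in that library. Ttr stands at 1006 FPKM in vehicle wild types and 84.1 in treated mutants in the authors' deposited table. By library it was at 35.4, 14.2 and 6369 in vehicle wild types and 590, 9.83 and 20.1 in treated mutants. Enpp2, which encodes autotaxin, stands at 227 and 64.4 FPKM in the authors' deposited table, and by library was at 62.4, 82.2 and 739 against 119, 61.4 and 67.6. Kcne2, a potassium channel subunit gene of this epithelium, was listed at 0 in vehicle wild types 1 and 2 and at 17.3 in the third. All 21 choroid plexus genes had a log2 difference below 0 (median -0.64), and 0 of the 21 above 0. Without vehicle wild type replicate 3 the median turned to 0.43. Of 38 lower loci matched to 1 tested gene, 0 had an unadjusted limma p under 0.05 and 1 had groups without overlap.

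Trh, the thyrotropin releasing hormone gene, stands at 1.95 FPKM in vehicle wild types and 0.260 in treated mutants in the authors' deposited table (q-value 0.0185). It was at 6.81, 0 and 1.1503 in vehicle wild types and 0, 0.607 and 0.532 in treated mutants, so 1 vehicle wild type holds most of it.

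Of the 44 higher loci of the authors' deposited table, 24 have a symbol, and 11 of the 24 were highest in treated mutant replicate 2, the library with the most abundance outside genes. Of the 20 without a symbol, 12 were highest there. Among loci with a value in both groups, the 3 largest ratios belonged to Rnu1a1, Rnu2-10 and Rn7sk, genes of small nuclear RNAs. Rnu1a1 and Rnu2-10 encode the U1 and U2 spliceosomal RNAs, which recognise the 5′ splice site and the branch point of introns. Their sequences from GENCODE M21 (GRCm38), written as DNA 5′ to 3′, are shown because they are short and not polyadenylated, unlike the messenger RNAs of the other results. Capitals mark the bases that pair with the splice site in U1 (bases 3 to 11) and with the branch point in U2 (bases 33 to 38).
Rnu1a1, chr11:87422867-87423030, plus strand: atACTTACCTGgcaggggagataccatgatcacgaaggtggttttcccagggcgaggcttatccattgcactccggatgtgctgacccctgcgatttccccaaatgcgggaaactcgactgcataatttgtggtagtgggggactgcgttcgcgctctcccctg
Rnu2-10, chr11:101658238-101658428, plus strand: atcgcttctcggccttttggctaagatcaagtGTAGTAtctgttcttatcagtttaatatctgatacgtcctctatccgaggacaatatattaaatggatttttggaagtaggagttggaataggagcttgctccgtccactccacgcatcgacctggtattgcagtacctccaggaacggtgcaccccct
Rnu1a1 stands at 40.8 FPKM in vehicle wild types and 1801 in treated mutants in the authors' deposited table, over a locus of 150759 bases, and Rnu2-10 at 31.6 and 1183. By library, Rnu2-10 had a scaled abundance of 9.39 in treated mutant replicate 2 and was listed at 0 in the other 5 libraries, and so was Rnu1a1, at 10.1 in that library. Rn7sk, the RNA that holds the elongation factor P-TEFb inactive, stands at 23.7 and 516 FPKM in the authors' deposited table and was at 0.456, 15.2 and 0.763 in treated mutants and 1.07, 0.793 and 0.547 in vehicle wild types. These 3 genes therefore stand out in 1 treated mutant, and limma gave them unadjusted p-values of 0.227, 0.288 and 0.373. Rny1 stands at 0 and 1258 FPKM in the authors' deposited table and had no assembled transcript in the 6 libraries. For vehicle mutants, the authors' deposited table that sets them beside vehicle wild types gives 2330 (Rnu1a1), 1655 (Rnu2-10), 668 (Rn7sk) and 1643 FPKM (Rny1). That group holds replicate 1, with 36.7% of its abundance in single-exon transcripts outside genes.

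Of the higher loci, 10 matched 1 tested gene, and Dsp and Cacng5 were the 2 of these whose libraries did not overlap and whose unadjusted limma p was under 0.05. Lars2, a mitochondrial leucyl-tRNA synthetase gene, stands at 220 and 1628 FPKM in the authors' deposited table. By library it was at 153, 3155 and 170 in treated mutants and 189, 5.51 and 198 in vehicle wild types, so treated mutant replicate 2 is high and vehicle wild type replicate 2 low. Jarid2, a Polycomb subunit gene, stands at 206 and 1452 FPKM in the authors' deposited table, over a locus of 272674 bases. The transcripts assigned to Jarid2 were at 8.91, 10.1 and 9.23 in treated mutants and 9.002, 9.90 and 10.01 in vehicle wild types, with a limma adjusted p of 1. All transcripts over the locus summed to 47.0, 31.2 and 2965 in treated mutants and 3398, 2687 and 3034 in vehicle wild types, which is lower in treated mutants. The 2 measures thus differ for Jarid2, and the cause was not tested.

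**Figure D5:**
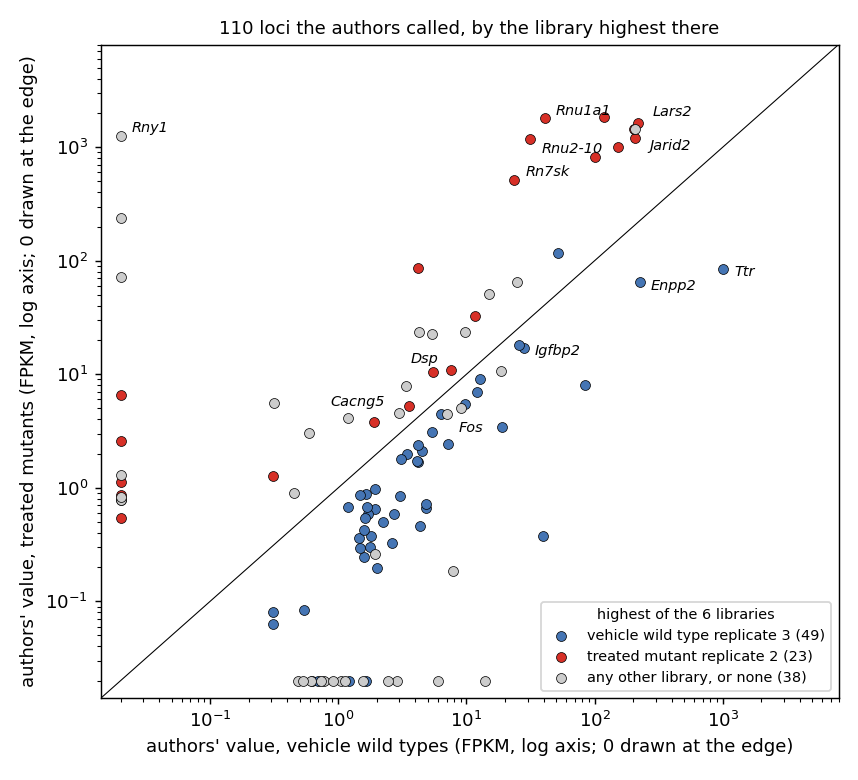
The 110 loci called in the authors' deposited table, with the vehicle wild-type value on the x axis and the treated mutant value on the y axis (FPKM, log axes, values of 0 drawn at the edge), coloured by which of the 6 libraries had the highest abundance over the locus. Below the diagonal most points are highest in vehicle wild type replicate 3 (49 loci in all). The loci that are highest in treated mutant replicate 2 (23 in all) have the higher value in treated mutants, and those drawn lie above it. Loci with a treated mutant value of 14676 FPKM or more fall outside the axes and are not drawn, some of the 23 among them.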

How the data were processed

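RNA of mouse hippocampus was sequenced in 14 libraries, of which 6 were compared here. Reads were aligned with TopHat2 2.1.0 to mm10 and checked with FastQC, per the submitters' processing notes. Per the file headers, CLASS 2.1.7 assembled the transcripts. The deposited transcript files give each transcript an abundance score, whose scale per length and depth was inferred from its values. The authors' deposited table gives FPKM for each group, log2 fold changes, p-values and q-values, with 1 value for a whole group. A further table, which sets treated wild types beside vehicle mutants, was not used.

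Transcripts were assigned to GENCODE M21 genes by shared introns and strand, or, with a single exon, by an overlap of at least 50%, and summed per gene. Sums were divided by a library factor, its median ratio to the mean of the libraries over 13273 genes that had a value in each of the 14. Of 18722 genes with a value, the 16569 with one in at least 3 libraries were tested with limma (trend, all 14 libraries, Benjamini-Hochberg adjustment) on log2(value + 0.9). The pseudocount 0.9 is the percentile 10 of the values above 0. Single values were tested by exact two-sided permutation. The model was tested on simulated data. Use of strand in the library kit is not stated.

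The genes named are Kmt2d, Kdm1a and called genes, the 10 higher and 10 lower genes described above, list members with an unadjusted p under 0.05 or without overlap and the 2 most abundant, and among called loci of the authors' deposited table with a symbol the 10 in each direction with the largest finite fold change and those with list members. Not all are printed, and results for 3 genes are not reported here. The comparison and the lists were chosen with earlier results of these data known. Replicate numbers are in accession order and pair nothing. Alternatives changed the libraries, pseudocount, filter, scaling, transcripts summed, trend, weights and an Xist term. The tools were R 4.3.3 with limma 3.58.1, and Python 3.11.15 with scipy 1.17.1, pandas 2.3.3, numpy 2.4.6 and matplotlib 3.10.9.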

Additional observations from a re-analysis of the deposited data

Results flagged for a closer look

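Signal outside the annotated genes stood apart in treated mutant replicate 2, and also in vehicle mutant replicate 1 (36.7% in single-exon transcripts in no gene and 3.95% in the 45S region), which is outside the comparison. In treated mutant replicate 2, single-exon transcripts in no gene held 26.9% of the abundance, above the highest vehicle wild type at 4.56%. The 45S region of chromosome 17 held 4.19% there and at most 0.203% in vehicle wild types. The single-exon transcripts in no gene do not enter the gene comparison, although they lower the share left for genes. The 45S share counts all transcripts of that region, and whether some were assigned to a gene was not checked.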

How the results depend on the processing

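The number of genes past the limma adjusted threshold, 1 in the comparison as reported, moved with most settings. It was 10 in a fit on the 6 libraries alone, 6 with a pseudocount of 0.09, 2 with one of 9, 3 without the filter on low values, 4 after quantile normalization, 2 with the highest transcript of each gene, 4 without the trend and 6 with library quality weights. It was 0 among genes with a value in all 14 libraries and 0 with multi-exon transcripts alone, where 739 and 880 genes had an unadjusted p under 0.05. Leaving out 1 library in turn gave 1 to 6 calls, with 6 without treated mutant replicate 2, and 2 without treated mutant replicate 1 or without vehicle wild type replicate 1 or 2. Without both treated mutant replicate 2 and vehicle wild type replicate 3, an alternative chosen after seeing the data, the number of calls was 10. The count at an unadjusted p under 0.05 stayed within 1.5 times of 893 in each setting. The count of genes without overlap rose from 1578 to between 2781 and 3400 when 1 library was left out, which leaves fewer samples to overlap. The 41 list genes at an unadjusted p under 0.05 became 25 to 54 with 1 library left out. The difference of Kdm1a, 0.03, turned to -0.0411 without library factors and -0.0473 with the highest transcript alone, and ran from -0.000791 to 0.0463 with 1 library left out. Highest transcripts alone also reversed Pgbd5 (-0.37), Ncam1 (0.0750) and Mkx (0.0733). The cause was not tested. At a q-value of 0.01, 0 of the 110 loci of the authors' deposited table are called, and 49 have both group values at 1 or more. No paired analysis was possible because the replicate numbers are not from the labels and tie no libraries together. Relative depth limits what can be read of genes listed at 0.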
